A study of Mus musculus with 6 samples.

Results

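The tumour necrosis factor (TNF) superfamily set described here holds the TNF-type ligands, their receptors and the TRAF adaptor proteins. Its members were the protein-coding genes of the table whose symbol is Tnf, Lta, Ltb, Ltbr, Fas, Fasl, Eda, Edar, Eda2r, a numbered Tnfsf or Tnfrsf gene, or Traf1 to Traf6. This gave 46 members among 23934 genes, namely 16 ligands, 24 receptors and 6 adaptors, and 34 of them passed the filter on low values and were tested. The rule reads gene names and no measured value, but the set was chosen with earlier results of these data known.

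RNA was sequenced from sorted mouse skin cells at day 50 in 6 libraries. The column names put S2, S3 and S4 in the control group, and S5, S6 and S7 among the Zfp750 knockouts. The knockout samples are labelled ZNF750 fl/fl with Rosa26 -/-, and carry Lrig1-CreERT2 (2 samples) or Lrig1-CreER (1 sample) as +/-. Among the controls, the labels give wt/fl with Rosa26 -/- for 2 samples, 1 with Lrig1-CreERT2 and 1 with Lrig1-CreER, and wt/wt with Rosa26 +/- and Lrig1-CreERT2 for the other. All 6 therefore carry the tamoxifen-activated recombinase, and all received 4-hydroxytamoxifen as pups, on days 4 to 7 or 5 to 8 of age. The recombinase is driven from Lrig1, a gene of the upper hair follicle, so deletion is limited to cells with that driver and their progeny. The cells are labelled as expressing the red reporter tdTomato. How cells with Rosa26 -/- came to carry it is not stated. The labels give 3 genotypes among the controls and 2 among the knockouts, so libraries of unlike genotype come from different mice, while for the 2 knockout samples of 1 genotype this is not stated. The p-values measure the spread between these libraries, genotype differences within a group included.

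TNF-type ligands are trimeric proteins that sit on the cell surface or are shed from it, and each binds one or a few receptors. Receptors with a death domain can start cell death as well as inflammatory signalling, others bind TRAF adaptors that lead to the transcription factor NF-kB, and decoy receptors bind ligand without passing on a signal. In skin, TNF is a central cytokine of psoriasis, ectodysplasin guides the development of hair follicles and glands, and costimulatory pairs such as OX40 and its ligand act between antigen-presenting cells and T cells.

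The libraries held 15310161 to 20705441 estimated reads. Values are normalized counts in the authors' scaling, a unit in which 1 read is worth 0.796 to 1.27. The targeted gene Zfp750 was at 41.9, 3.75 and 314 in controls S2, S3, S4 and at 4.90, 1.82 and 7.16 in knockouts S5, S6, S7, so the library labelled control S3 was as low as the knockouts; counts of called members without it are given with the main counts. The labels name no cell type for the sort, and Lrig1 was present in every library, at 585 to 2089. The basal keratinocyte keratin Krt5 was at 2503, 62.5 and 11805 in controls and at 1164, 885 and 8559 in knockouts. The pan-leukocyte gene Ptprc was at 36.9, 36.2 and 579 in controls and at 133, 679 and 1158 in knockouts, so control S4 held more leukocyte transcript than knockout S5. The fibroblast genes Col1a1, Col1a2, Col3a1, Pdgfra, Lum and Dcn summed to 4578940, 8902030 and 2971210 in controls and to 1191530, 905440 and 1001080 in knockouts. The library totals were 19455500, 25861500 and 16167800 in controls and 16730300, 15440900 and 16088700 in knockouts. How far this difference bears on the members' changes was not tested. In sorted bulk cells, more cells of a type and more RNA per cell cannot be told apart.

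Start regions are shown for 3 of the called members, Tnfrsf21 and Tnfsf11 among the genes that rose and Eda2r among those that fell. Each runs from 250 bases before to 50 after the annotated start in RefSeq (GRCm38.p6), 5′ to 3′ on the strand of the gene, and capitals mark the TATA box letters TATAAA read on either strand.
Tnfrsf21 (chr17:43016305-43016604, plus strand): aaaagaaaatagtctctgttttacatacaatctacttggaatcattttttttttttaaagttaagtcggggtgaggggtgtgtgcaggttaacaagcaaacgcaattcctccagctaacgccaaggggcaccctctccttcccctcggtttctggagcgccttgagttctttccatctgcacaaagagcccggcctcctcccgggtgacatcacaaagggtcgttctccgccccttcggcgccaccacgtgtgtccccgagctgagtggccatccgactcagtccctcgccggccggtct
Tnfsf11 (chr14:78307994-78308293, minus strand): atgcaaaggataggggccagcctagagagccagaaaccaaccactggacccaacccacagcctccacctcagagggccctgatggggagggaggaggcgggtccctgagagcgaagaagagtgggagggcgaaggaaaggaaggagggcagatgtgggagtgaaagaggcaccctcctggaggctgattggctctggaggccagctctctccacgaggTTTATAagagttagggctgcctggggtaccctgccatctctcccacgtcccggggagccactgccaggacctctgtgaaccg
Eda2r (chrX:97377160-97377459, minus strand): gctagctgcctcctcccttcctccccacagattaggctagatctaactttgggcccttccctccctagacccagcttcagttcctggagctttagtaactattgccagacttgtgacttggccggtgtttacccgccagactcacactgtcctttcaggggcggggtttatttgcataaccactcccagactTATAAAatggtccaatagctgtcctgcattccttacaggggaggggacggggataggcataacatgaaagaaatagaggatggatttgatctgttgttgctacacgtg
In Tnfsf11 the TATA box letters lay on the opposite strand, the first printed capital being 32 bases before the start, and in Eda2r on the strand of the gene, 58 bases before it. RefSeq start regions were matched for 39 of the 46 members (43 windows), among them 8 of the called members with 9 windows. The kappaB consensus of NF-kB, read on both strands, was found in 0 of these 9 windows, in 5 of the 43 and in 8.46% of 32851 windows of all genes. The AP-1 letters TGANTCA were found in 2 of the 9, both of them windows of Tnfsf13b that overlap each other, in 7 of the 43 and in 7.81% of all windows. TATAAA was found in 2 of the 9, in 7 of the 43 and in 13.6% of all windows. No matches of different motifs overlapped in a member's window. A match is a match of letters only.

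Receptors of several TNF-type ligands were higher in the knockout, and the ectodysplasin gene and 1 of its receptors were lower. Of the 34 tested members, 7 rose and 2 fell at an adjusted p under 0.05 (limma), against 4.12% of all 15935 tested genes that rose and 2.59% that fell. This makes 9 of 34 members, or 26.5%, against 6.71%. Those that rose were the receptor genes Tnfrsf11b, Tnfrsf21, Tnfrsf1a and Tnfrsf1b, the ligand genes Tnfsf11 and Tnfsf13b, and the adaptor gene Traf4. Those that fell were Eda and Eda2r. The median log2 fold change of the tested members was 0.57, against 0.01 over all tested genes. Tnfsf11, Tnfsf8 and Ltb passed the filter through knockout libraries only, so they could hardly have been tested without being higher there. The other 31 tested members held 6 that rose and 2 that fell, with a median of 0.38. An unadjusted p under 0.05 was reached by 16 members (47.1%), against 23.2% of all tested genes. The groups did not overlap for 14 of the 34 tested members, or 41.2%, against 28.8% of all tested genes. Of these, 11 were higher and 3 lower in the knockout, against 15.7% and 13.1% of all tested genes. The number of members that rose was 2, 3, 6, 2, 2 and 3 without S2, S3, S4, S5, S6 and S7 in turn, and the number that fell was 2 without S4 or S5 and 0 without S2, S3, S6 or S7. Without the library labelled control S3, the members that rose were Tnfrsf11b, Tnfrsf21 and Tnfsf13b. In that fit Tnfsf13b also passed the filter through knockout libraries only. Its values in controls S2 and S4 (5.08 and 11.8) were below the filter there (19.5 and 16.2), and S3 was its only control above it.

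**Figure D1:**
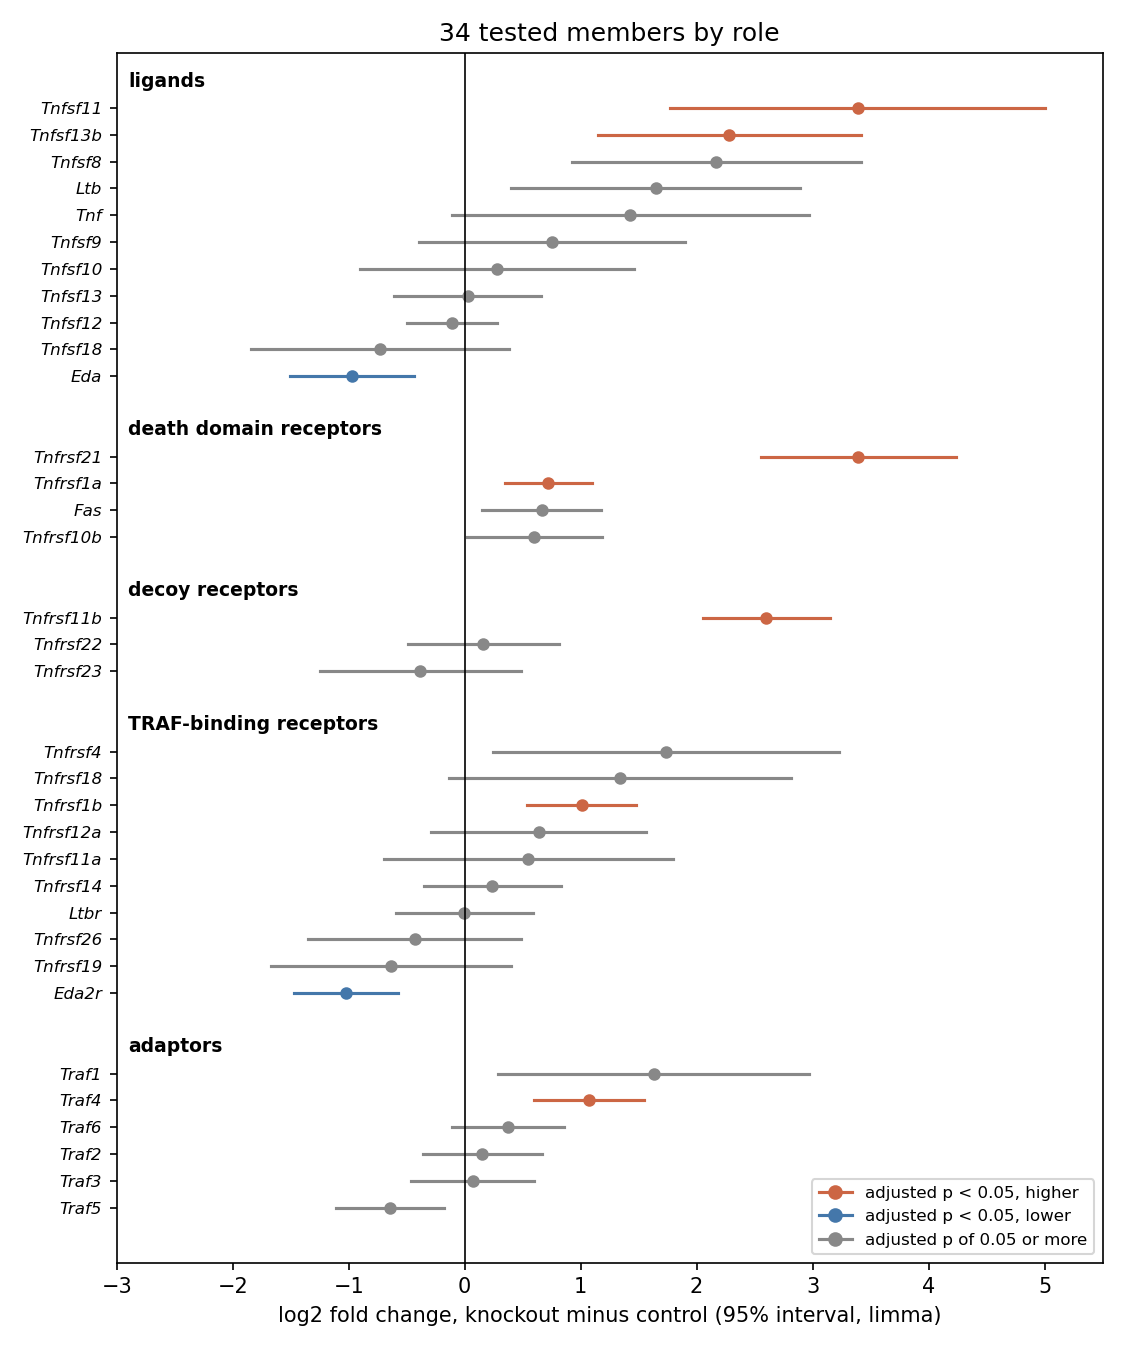
Log2 fold change, knockout minus control, of the 34 tested members by role (x axis, limma on log2(value + 9.15)), with points for the estimates and lines for their 95% intervals. Orange members rose (7), blue members fell (2) and grey members did not pass the test (25).

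The smallest adjusted p-values of the set were those of Tnfrsf11b and Tnfrsf21. Tnfrsf11b (ENSMUSG00000063727, chromosome 15, 54250619 to 54278484 in GRCm38) encodes osteoprotegerin, a secreted decoy that binds the ligand RANKL and also TRAIL. Its normalized value was 173, 130 and 188 in control S2, S3 and S4 and 1216, 1158 and 770.1 in knockout S5, S6 and S7. Every knockout library was far above the highest control. The mean went from 163 ± 29.95 to 1048 ± 243 (SD, n = 3 each), a log2 fold change of 2.60 ± 0.23 (SE; 95% interval 2.06 to 3.15; limma adjusted p = 0.00183). Tnfrsf21 (ENSMUSG00000023915, chromosome 17, 43016555 to 43089189) encodes death receptor 6, a death domain receptor with no ligand assigned within the TNF family. It was at 126, 74.9 and 166 in controls and at 843, 1858 and 1437 in knockouts. The groups were far apart, knockout S5 being the lowest of its group. The mean went from 122 ± 45.5 to 1379 ± 510 (SD, n = 3 each), a log2 fold change of 3.39 ± 0.36 (SE; 95% interval 2.55 to 4.23; adjusted p = 0.00328). Both genes kept their call in each of the 6 fits without 1 library, with adjusted p-values of 0.00306 to 0.0217 for Tnfrsf11b and 0.00362 to 0.0242 for Tnfrsf21.

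**Figure D2:**
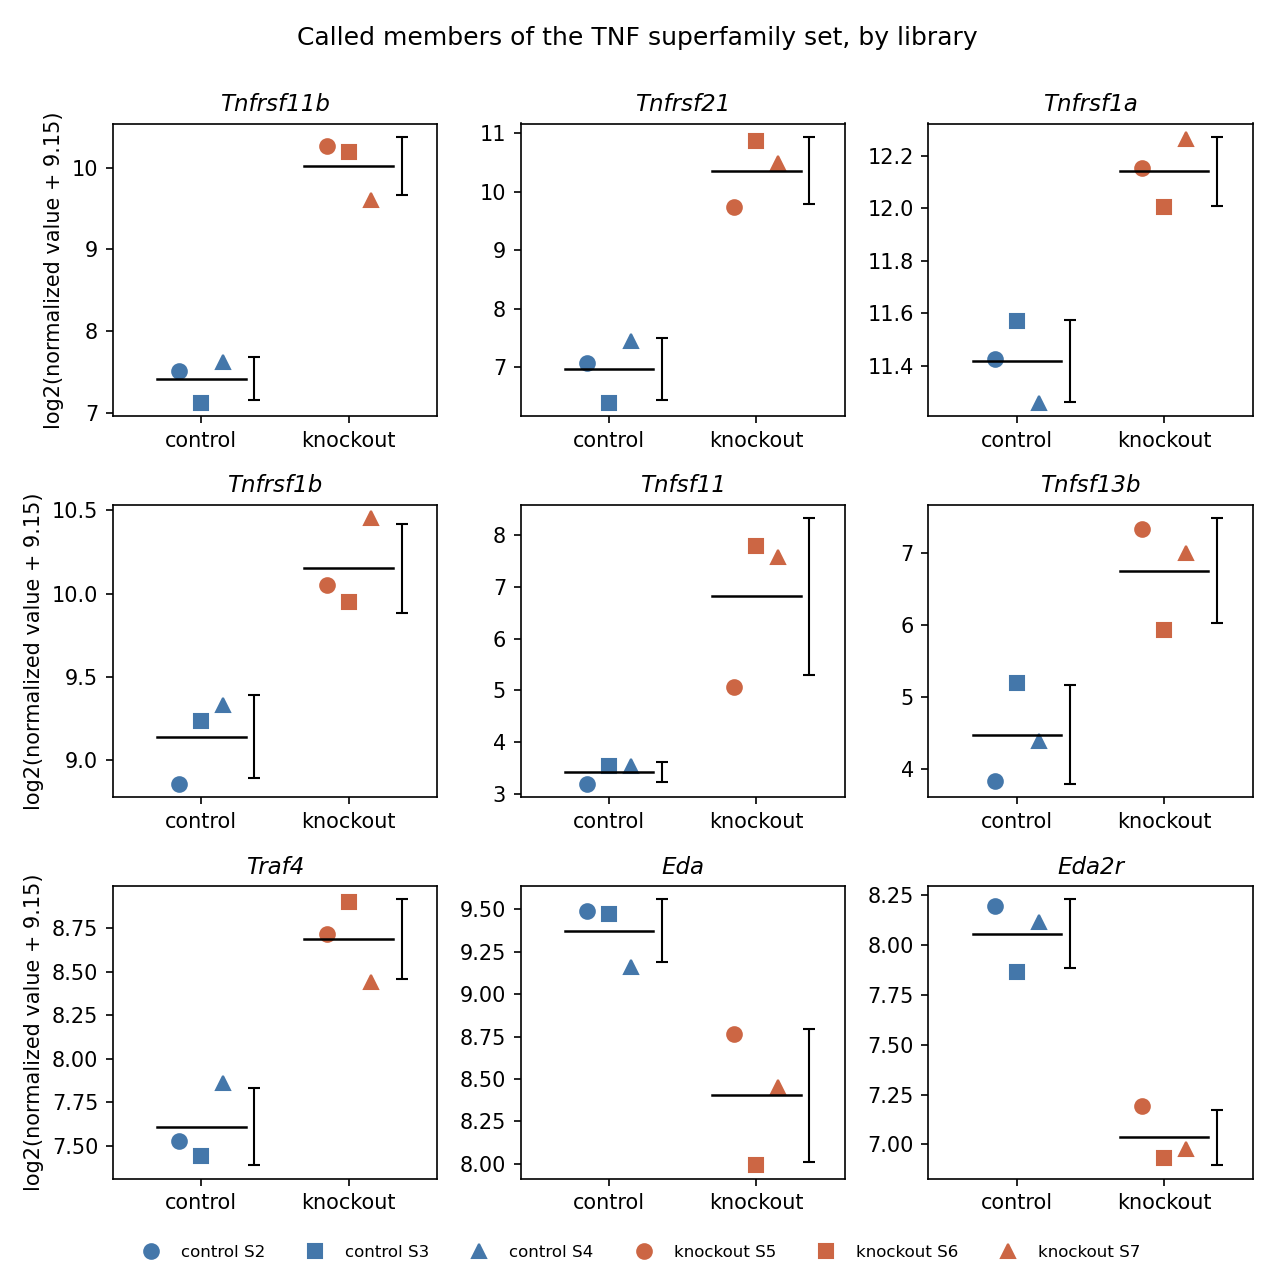
Expression of the 9 called members in each library, as log2(normalized value + 9.15) on an axis scaled per gene. Symbols are single libraries, horizontal lines group means and bars 1 SD of 3 libraries; in all 9 panels the control and knockout libraries do not overlap.

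The ligand of osteoprotegerin was also higher in the knockout. Tnfsf11 (ENSMUSG00000022015, chromosome 14, 78277445 to 78308043) encodes RANKL, the ligand that drives osteoclast formation through its receptor RANK. It was at 0, 2.498 and 2.52 in controls S2, S3, S4 and at 24.5, 212 and 182 in knockouts S5, S6, S7. These values stand for 5 estimated reads in all controls together and 487 in knockouts. Pooled over the libraries of each group and corrected for their size factors, the ratio was 80.2. Its exact 95% interval of 34.1 to 248 covers counting error only. Knockout S5 was far below the other knockouts and above each control. The log2 fold change was 3.39 ± 0.69 (SE; adjusted p = 0.0319), and it was 5.43 with a pseudocount of 1 and 1.19 with a pseudocount of 5 per 1000000, where the call was lost (adjusted p = 0.0908). It also lost its call without S2 or S3 (adjusted p = 0.125 and 0.0805), and, with the genes tested kept as they were, without S6 or S7 (0.121 and 0.104). The receptor gene Tnfrsf11a, which encodes RANK, was at 41.9, 41.2 and 69.8 in controls and at 42.2, 51.0 and 197 in knockouts. Only knockout S7 stood above the controls, and the log2 fold change of 0.55 ± 0.53 (SE; adjusted p = 0.586) became -0.08 without S7. Per kilobase of exon, Tnfrsf11b was 41.3 and 59.0 times Tnfsf11 in control S3 and S4, on 2 and 3 reads of Tnfsf11, and 39.4, 4.33 and 3.35 times in knockout S5, S6 and S7. In knockouts S6 and S7 the decoy was thus in smaller excess over its ligand than in S5, although both transcripts were higher than in the controls.

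Both receptors of TNF itself were higher, and the TNF transcript did not pass the test. Tnfrsf1a (ENSMUSG00000030341, chromosome 6, 125349362 to 125362484) encodes TNFR1, the widely expressed death domain receptor. It was at 2744, 3030.1 and 2442 in controls S2, S3, S4 and at 4550.0, 4096 and 4909 in knockouts S5, S6, S7. The lowest knockout exceeded the highest control, and the log2 fold change was 0.72 ± 0.16 (SE; adjusted p = 0.0419). Leaving out any 1 library ended this call, with limma adjusted p-values of 0.0646 to 0.154, while the log2 fold change stayed between 0.64 and 0.80. Tnfrsf1b (ENSMUSG00000028599, chromosome 4, 145213463 to 145246870) encodes TNFR2, which has no death domain and is typical of immune and endothelial cells. It was at 455, 595 and 635 in controls and at 1051, 981 and 1392 in knockouts, a log2 fold change of 1.01 ± 0.20 (SE; adjusted p = 0.0290). Its groups were apart as well, and its call held only without S4, the other 5 fits giving an adjusted p of 0.0586 to 0.116. The endothelial list (5 of 5 genes in the table, 4 tested, 2 with a positive and 2 with a negative log2 fold change, 0 called) summed to 1566, 1245 and 2169 in controls S2, S3, S4 and to 1340.5, 1503 and 3882 in knockouts S5, S6, S7, so the groups overlapped. Its gene Pecam1 was at 262, 237 and 95.03 in controls and at 184, 603 and 2026 in knockouts, and the part of endothelial cells or leukocytes in the Tnfrsf1b result was not tested. Tnfrsf1b per 100 Tnfrsf1a was 16.6 to 26.0 in controls and 23.1 to 28.4 in knockouts, ranges that overlap.

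Tnf was at 8.90, 16.2 and 80.7 in controls S2, S3, S4 and at 42.2, 89.3 and 150 in knockouts S5, S6, S7. Control S4 lay between the knockouts, so the groups overlapped, and the log2 fold change of 1.43 ± 0.66 (SE; 95% interval -0.11 to 2.97) did not pass the test (adjusted p = 0.247, and 0.0515 to 0.545 without 1 library). Relative to Ptprc, Tnf was 24.1, 44.8 and 14.0 per 100 in controls and 31.6, 13.2 and 12.9 per 100 in knockouts. Lta, which encodes lymphotoxin alpha and binds the same receptors, was at 0 to 5.08 in controls and 0 to 13.5 in knockouts and was not tested.

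Tnfsf13b (ENSMUSG00000031497, chromosome 8, 10006467 to 10039072) encodes BAFF, a survival factor of B cells made by myeloid and stromal cells. It was at 5.08, 27.5 and 11.8 in controls S2, S3, S4 and at 152, 52.0 and 119 in knockouts S5, S6, S7. The groups did not overlap, with S6 the lowest knockout and S3 the highest control. The log2 fold change was 2.28 ± 0.49 (SE; adjusted p = 0.0359), and the gene was no longer called without any 1 of S2, S4, S5, S6 and S7 (adjusted p = 0.0514 to 0.131). Its 3 receptor genes were too low to be tested. Tnfrsf13b was at 2.498 to 33.6 in controls and 8.83 to 55.7 in knockouts, Tnfrsf13c at 2.52 to 8.90 and 5.88 to 14.3, and Tnfrsf17, a plasma cell receptor, was detected in knockout S7 only, at 8.75. The B cell marker list had all 5 genes in the table, with 1 tested and 0 called. It summed to 11.8 to 35.6 in controls and 31.4 to 217 in knockouts, so the groups overlapped. Its gene Ms4a1 was at 0 in every control, and the part of B cells in the result was not tested. The related ligand gene Tnfsf13, which encodes APRIL and lies beside Tnfsf12 and with it overlaps the read-through gene Tnfsfm13 on the same strand, so that reads could have been split, had a log2 fold change of 0.03 (95% interval -0.61 to 0.66).

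The ectodysplasin genes were lower in the knockout. Eda (ENSMUSG00000059327, chromosome X, 99975606 to 100400762) encodes ectodysplasin A, whose splice forms bind EDAR or EDA2R. It was at 710.4, 701 and 563 in controls S2, S3, S4 and at 427, 245 and 341 in knockouts S5, S6, S7. The groups did not overlap, and the log2 fold change was -0.97 ± 0.23 (SE; adjusted p = 0.0494). The call was lost in 6 of the 10 alternatives that kept all libraries, with adjusted p-values of 0.0505 to 0.134. Eda2r (ENSMUSG00000034457, chromosome X, 97333840 to 97377216), the receptor of the shorter form, was at 283, 224 and 267 in controls and at 137, 113 and 117 in knockouts. All 3 knockouts were close to each other and below each control, with a log2 fold change of -1.02 ± 0.19 (SE; adjusted p = 0.0246). Both calls held without S4 or S5 only, the other 4 fits giving adjusted p-values of 0.118 to 0.179 for Eda and 0.0519 to 0.117 for Eda2r. Both were lost when libraries were scaled to a common total (log2 fold changes of -0.65 and -0.72, adjusted p = 0.134 and 0.174), a scaling that moved the median of all genes by 0.30 toward higher values in the knockout. Eda2r per 100 Eda was 31.9 to 47.5 in controls and 32.2 to 46.1 in knockouts. Edar, the follicle receptor of the longer form, did not pass the filter, at 2.54, 1.25 and 37.8 in controls and 0, 5.47 and 4.77 in knockouts. Control S4 alone held a sizeable level of Edar, and it also had the highest Krt5. Of the 8 genes listed for ectodysplasin signalling and follicle targets, 5 were tested and 0 passed (the unadjusted p was under 0.05 for 0 of them). The 2 with the highest means were Ctnnb1, which encodes beta-catenin (log2 fold change 0.00 ± 0.16, SE), and Bmp4 (-0.44 ± 0.33, adjusted p = 0.480). Shh, a signalling gene of hair growth that did not pass the filter, was at 3.81, 3.75 and 56.3 in controls and 0, 0.911 and 0 in knockouts.

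Among the 6 adaptor genes, 1 rose and 0 fell, against 4.12% and 2.59% of all tested genes. Their median log2 fold change was 0.26. Traf4 (ENSMUSG00000017386, chromosome 11, 78158499 to 78165589), an adaptor with known roles in epithelial and developing tissues, was at 175, 165 and 224 in controls S2, S3, S4 and at 411, 468 and 339 in knockouts S5, S6, S7. The groups were apart, and the log2 fold change was 1.07 ± 0.20 (SE; adjusted p = 0.0246). The call was lost without S2, S3, S5 or S6 (adjusted p = 0.0663 to 0.106). Traf1, an adaptor induced by NF-kB in activated lymphocytes, was at 11.4, 21.2 and 61.4 in controls and 47.1, 120 and 171 in knockouts (log2 fold change 1.63 ± 0.57, SE; adjusted p = 0.145). Control S4 lay above knockout S5 for Traf1, as it did for Ptprc. Traf5 was at 285, 361 and 271 in controls and 220, 191 and 164 in knockouts, apart but not past the test (-0.65 ± 0.20, adjusted p = 0.105). Traf2, Traf3 and Traf6, which serve many receptors, had 95% intervals of -0.36 to 0.66, -0.46 to 0.60 and -0.11 to 0.86.

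Costimulatory ligands and receptors of lymphocytes differed in direction, and none of those tested passed. Tnfsf8, which encodes CD30 ligand, was at 10.2, 6.25 and 5.89 in controls S2, S3, S4 and at 22.6, 87.5 and 123 in knockouts S5, S6, S7. Its groups did not overlap, and its log2 fold change of 2.17 ± 0.53 (SE) had an adjusted p of 0.0563. Over the 9 alternatives that kept all libraries and tested it, the adjusted p was 0.0353 to 0.104, under 0.05 in 2 of them, and without 1 library, with the same genes tested, it was 0.0104 to 0.183, under 0.05 only without S5. Tnfrsf8, the receptor CD30, was at 0 to 3.75 in controls and at 0, 36.5 and 43.0 in knockouts. Tnfrsf4 (OX40) was at 6.35, 5.00 and 21.0 in controls and 16.7, 56.5 and 135 in knockouts (1.74 ± 0.64, adjusted p = 0.159). Its ligand gene Tnfsf4 had the opposite order, with 22 estimated reads among controls (8.90, 7.49 and 7.57) and 3 in knockouts (0, 0 and 2.39), a ratio of 0.112 with an exact 95% interval of 0.0215 to 0.374 for counting error. It was the only 1 of the 12 members below the filter whose groups did not overlap. Tnfrsf18 (GITR) was at 16.3, 2.498 and 37.9 in controls and 20.3, 67.3 and 91.0 in knockouts (1.34 ± 0.63, adjusted p = 0.256). Tnfrsf9 (4-1BB), below the filter, was at 5.08, 2.498 and 12.6 in controls and 9.81, 58.3 and 130 in knockouts. Its ligand gene Tnfsf9, by contrast, was well expressed in every library, at 290.1 to 520 in controls and 430.3 to 1632 in knockouts, with knockout S6 the highest (log2 fold change 0.75 ± 0.49, adjusted p = 0.407). Ltb, which encodes lymphotoxin beta, was at 0, 0 and 16.0 in controls and 18.6, 26.4 and 56.5 in knockouts (1.65 ± 0.53, adjusted p = 0.119). Without 1 library, with the same genes tested, its adjusted p was 0.0426 without S4 and 0.125 to 0.317 in the other 5 fits. Ltbr, its receptor, was at 1186 to 2326 and 1463 to 1856, with a 95% interval of -0.59 to 0.59.

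**Figure D3:**
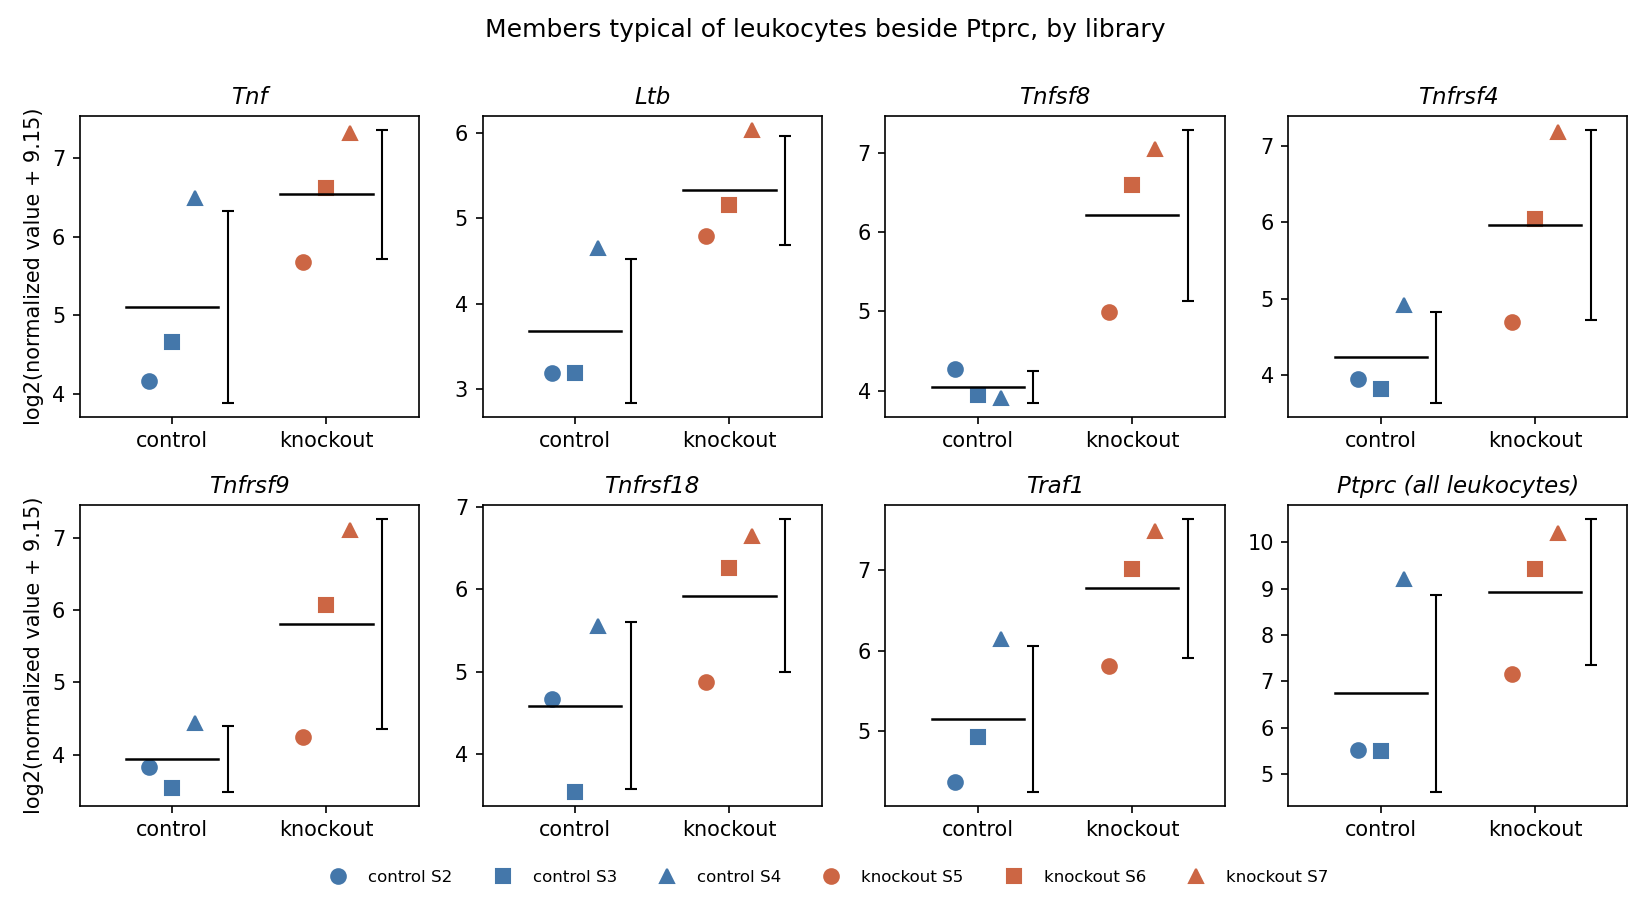
Expression of 7 members typical of leukocytes and of Ptprc in each library, as log2(normalized value + 9.15) on an axis scaled per gene. Symbols are single libraries, lines group means and bars 1 SD of 3 libraries. In 7 of the 8 panels, all but Tnfsf8, control S4 is the highest control, and in all 8 panels knockout S5 is the lowest knockout. The called members Tnfsf13b (S3 the highest control, S5 the highest knockout) and Tnfrsf1b (S6 the lowest knockout) are not shown and differ from this order. The untested members Fasl and Tnfrsf8 (S3 the highest control) and Lta (S2 the highest control, S6 the lowest knockout) also differ from it, on few reads. The 7 members shown were picked and do not stand for the whole set.

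Marker lists of other cell types were set beside these values. The T cell list (9 of 9 genes in the table, 7 tested, 0 called) summed to 55.0 to 402 in controls and 164 to 1465 in knockouts, with control S4 above knockout S5. The macrophage list (8 of 8 genes, 0 called) summed to 1248 to 2184 in controls and to 2014, 1555 and 15494.5 in knockout S5, S6 and S7. Positive log2 fold changes were found for 7 and negative for 1 of its genes (median 2.65), and for 7 and 0 T cell genes (2.02). All 3 pan-leukocyte genes were positive (2.18), and the median over all tested genes was 0.01. An unadjusted limma p under 0.05 was reached by 5 macrophage and 3 T cell genes, against 23.2% of all tested genes. The groups were apart and higher for 4 and 0 of them, against 15.7%. Of the mast cell list, 8 of 8 were in the table and 3 of 7 tested rose, against 4.12% of all tested genes. Its sums were 44.5 to 619 in controls and 1425 to 4544 in knockouts. Fcer1a and Tpsab1, 2 of those 3, were at 0 in every control. Both passed the filter through knockout libraries only, leaving 1 of the other 5 that rose. The neutrophil list (4 of 5 genes in the table, 1 tested, 0 called) summed to 8.90, 0 and 19.3 in controls and to 56.9, 73.8 and 583 in knockouts, without overlap. The groups overlapped for the lists of regulatory T cells (223 to 532 against 326 to 1014), NK cells (2.54 to 25.6 against 13.7 to 193), dendritic and Langerhans cells (31.2 to 327 against 65.7, 40.4 and 346) and plasma cells (787 to 6226 against 1271 to 3010.5), with 0 genes called in each. Outside the leukocytes, the fat cell list summed to 6.35 to 63.7 in controls and 177 to 7346 in knockouts (1 of 2 tested genes rose, Cfd), and the sebocyte list to 9233.5 to 10894 and 11202 to 52016 (2 of 5 rose, Awat1 and Elovl3). These 3 genes passed the filter through knockout libraries only. The pericyte and smooth muscle list (1 of 5 tested genes rose and 1 fell) summed to 11958, 10669 and 9238 in controls. In knockouts it summed to 17748, 14236.5 and 16101, without overlap, although 3 of its genes had a negative log2 fold change and 2 a positive. Of the suprabasal keratinocyte list, 1 of 3 tested genes fell, and its sums overlapped. The part of these cell types in the single results was not tested. Relative to Ptprc, the ranges of Tnf, Tnfsf8, Tnfrsf4, Tnfrsf9, Tnfrsf18 and Traf1 overlapped between the groups. So did those of the called members Tnfrsf11b (32.4 to 469 per 100 in controls, 66.5 to 912 in knockouts), Tnfrsf21 (28.6 to 341 and 124 to 632), Tnfrsf1b (109.7 to 1641 and 120.3 to 788) and Tnfsf13b (2.03 to 75.9 and 7.65 to 114). Those of Tnfsf11 did not, at 0 to 6.90 per 100 in controls and 15.7 to 31.3 per 100 in knockouts, nor did those of Ltb, at 0 to 2.76 and 3.89 to 14.0. Both members passed the filter through knockout libraries only, so they were likely to be higher there. Their ratios in controls S2, S3 and S4 rest on 0, 2 and 3 estimated reads of Tnfsf11 and 0, 0 and 19 of Ltb. Ptprc itself ran from 36.2 to 579 in controls and from 133 to 1158 in knockouts, a spread that widens every ratio to it. Neither overlap nor a gap between such ratios can therefore show whether a member follows leukocytes. These ratios were chosen after the values were seen, and the part of leukocytes in the single results was not tested. The fibroblast list (6 of 6 genes, 1 of 6 called, Pdgfra, higher) summed to 2971210 to 8902030 in controls and 905440 to 1191530 in knockouts. These sums did not overlap and were lower in the knockout. Of its genes, 5 had a negative and 1 a positive log2 fold change, with a median of -1.34. The part of fibroblasts in the single results was not tested.

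The other tested death receptors were Fas and Tnfrsf10b, the receptors of Fas ligand and TRAIL. Fas was at 107, 87.4 and 105 in controls and 200.04, 152 and 142 in knockouts, and Tnfrsf10b at 52.1, 56.2 and 70.6 in controls and 103, 75.7 and 108 in knockouts. For both the groups did not overlap, and neither passed the test (log2 fold changes of 0.66 and 0.60, adjusted p = 0.126 and 0.203). The ligand gene Fasl was below the filter, with 4 estimated reads in all controls and 48 in all knockouts, and Tnfsf10, which encodes TRAIL, had a 95% interval of -0.90 to 1.46. The mouse decoy receptors of TRAIL, Tnfrsf22 and Tnfrsf23, and their neighbour Tnfrsf26 lie side by side on chromosome 7 and are near relatives, so reads could have been split between them. Their log2 fold changes were 0.16, -0.38 and -0.43 (adjusted p = 0.558 to 0.777). Tnfrsf12a, the receptor of TWEAK, was at 363 to 869 in controls and 519.5 to 1253 in knockouts, and its ligand gene Tnfsf12 had a 95% interval of -0.50 to 0.28. Tnfrsf19, an orphan receptor of the hair follicle, was at 893, 1958 and 519 in controls and 484, 654 and 762 in knockouts (-0.63 ± 0.44, adjusted p = 0.441). Tnfsf18, the GITR ligand gene, had a log2 fold change of -0.73 ± 0.48 (adjusted p = 0.408), and Tnfrsf14, the receptor of LIGHT, 0.24 ± 0.25 (adjusted p = 0.620). Tnfsf14, Tnfsf15 and Tnfrsf25 stayed at or below 19.1 in every library.

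Compared per kilobase of exon, the level order of the set shifted with genotype. Tnfrsf1a was first and Ltbr second of the 46 members in both groups, at mean levels of 1057 and 743 per kilobase in controls and 1744 and 719 in knockouts. Tnfrsf11b went from the 15th place (58.0) to the 5th (372), and Tnfrsf21 from the 20th (29.7) to the 7th (336). Tnfsf11 went from the 44th (0.749) to the 17th (62.5), where it was close to Tnf (57.2). Eda went from the 12th place (96.4) to the 21st (49.5). Several neighbours in this order, such as Tnfrsf11b and Tnfsf12 (357) in knockouts, differed by less than the spread between libraries.

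Beyond the set, Cd40, a TNF receptor superfamily gene under another symbol and a costimulatory receptor of antigen-presenting cells, was higher in the knockout and passed the filter through knockout libraries only, so it could hardly have been tested without being higher. It was at 12.7, 8.74 and 13.5 in controls and 91.2, 191 and 146 in knockouts (log2 fold change 2.82 ± 0.33, SE; adjusted p = 0.00455). Of the other 3 tested genes of that list, 0 rose and 0 fell. Of 31 receptor adaptors, kinases and ubiquitin enzymes, 2 rose and 0 fell, with a median log2 fold change of 0.08, against 4.12% of all tested genes that rose and 2.59% that fell, so the list's share was near that of all genes. The 2 were Tnip1, a partner of the NF-kB brake A20 (0.94 ± 0.17, adjusted p = 0.0234; 0.0565 to 0.0880 without S2, S5, S6 or S7), and the initiator caspase gene Casp8 (0.88 ± 0.16, adjusted p = 0.0238; 0.0685 to 0.101 without S2, S3, S5, S6 or S7). Of 5 genes for shedding and its control, Timp3, an inhibitor of the TNF-shedding protease ADAM17, fell from 12029.9, 11243 and 17654.5 in the controls to 4933, 3194 and 4661 in knockouts (-1.67 ± 0.26, adjusted p = 0.0120; 0.0552 to 0.0584 without S2 or S6). None of the other 4 passed.

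NF-kB subunit and inhibitor genes did not pass the test. All 11 were tested and all 11 had a positive log2 fold change, with a median of 0.57. Limma called 0 of them, and 4 had an unadjusted p under 0.05, against 23.2% of all tested genes. For 3 of them the groups did not overlap and were higher in the knockout, against 15.7% of all tested genes. The 2 with the highest means were Nfkbia, which encodes the inhibitor IkB alpha (0.05 ± 0.42, adjusted p = 0.957), and Nfkbiz (0.57 ± 0.35, adjusted p = 0.369). The list of genes known to be induced by TNF was, like the other lists, chosen with earlier results of these data known. Of its 29 tested genes, 7 rose and 0 fell, with a median of 0.41. Among all tested genes the shares were 4.12% and 2.59% and the median 0.01. The genes of the list that rose were not an independent result. By adjusted p these genes were led by the gelatinase gene Mmp9 (5.68 ± 0.29, adjusted p = 0.000239), the neutrophil attractant gene Cxcl5 (4.33 ± 0.44, adjusted p = 0.00283), the complement gene C3 (1.83 ± 0.28, adjusted p = 0.0107) and the superoxide dismutase gene Sod2 (1.31 ± 0.21, adjusted p = 0.0133). Cxcl5 passed the filter through knockout libraries only, leaving 6 of 28 that rose, and its log2 fold change was 1.68 with a pseudocount of 5 per 1000000 and 6.65 with 1. C3 lost its call without S2 (adjusted p = 0.0667), and Sod2 without S2 or S6. Of 7 tested osteoclast-type genes downstream of RANK, 2 rose and 0 fell, with a median of 0.10, namely Mmp9 and the proton pump subunit gene Atp6v0d2. Atp6v0d2 was at 0, 2.498 and 0 in controls and 24.5, 43.8 and 94.7 in knockouts (2.52 ± 0.46, adjusted p = 0.0219; log2 fold change 4.98 with a pseudocount of 1, and 0.63 with 5 per 1000000, where adjusted p = 0.0755). It too passed the filter through knockout libraries only, leaving Mmp9 alone among the other 6, and with the same genes tested its call was lost without S2, S6 or S7 (adjusted p = 0.0634 to 0.0865). Ctsk and Nfatc1, also on that list, had log2 fold changes of 0.10 ± 0.34 and -0.59 ± 0.37 (adjusted p = 0.895 and 0.391).

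**Figure D4:**
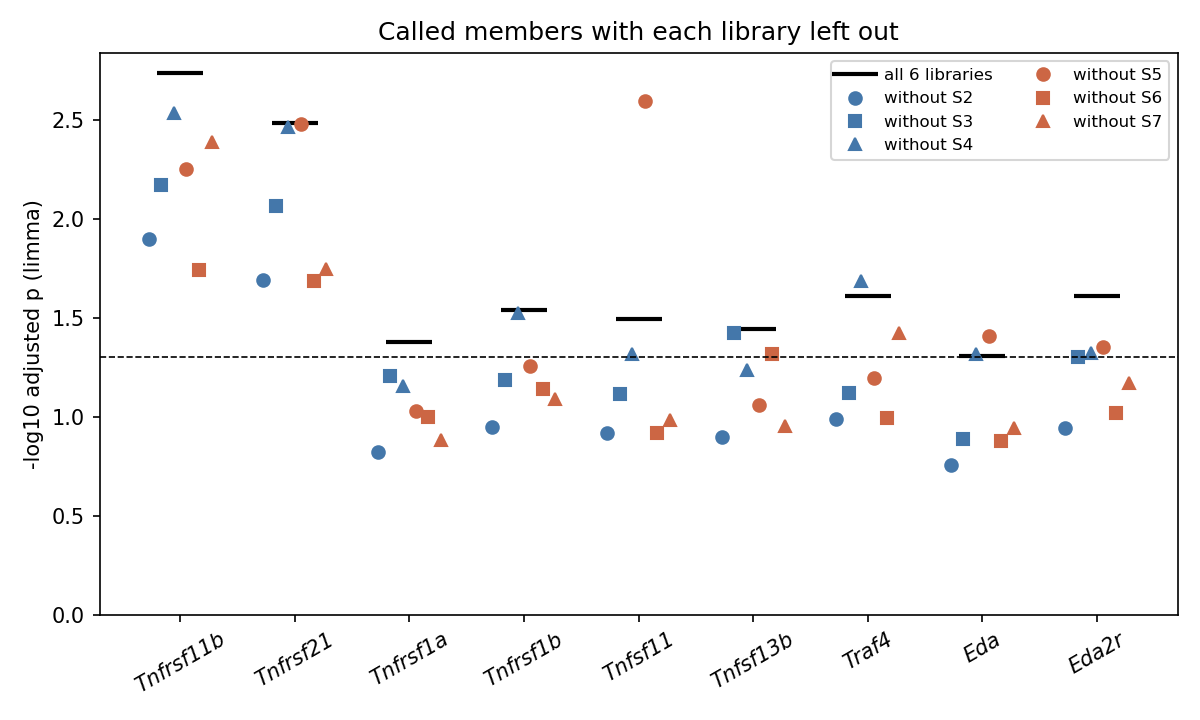
The -log10 of the limma adjusted p for the 9 called members, with all 6 libraries (black bars) and with each library left out while the same genes were tested (symbols). The dashed line marks an adjusted p of 0.05; only Tnfrsf11b and Tnfrsf21 stay above it in all 6 fits.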

How the data were processed

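The deposited table holds the authors' normalized counts, by its file name and columns, taken here as a signal: estimated reads divided by 1 size factor per library. In each library 78.3% to 80.5% of values up to 1000 reads are whole multiples of 1 step within 0.05, so no count model was run. TopHat2 2.1.0 and Partek 9.0.20.0202 are listed in the submitters' processing notes, without roles. The build, annotation and strand setting were not given in the sources used here. Columns were mapped to groups by name, since their numbers fit no single sample.

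Groups were compared with limma 3.58.1 (R 4.3.3; empirical Bayes with intensity trend, 2-sided) on log2(value + 9.15), 0.5 per 1000000 of the mean library total, which understates changes of low genes. Genes needed 1 per 1000000 in at least 3 libraries (15935 genes). P-values were Benjamini-Hochberg adjusted over all of them, and genes under 0.05 were called. The fit was tested on simulated data. Positions and merged exon lengths come from GENCODE for GRCm38, where 2.20% of shared gene IDs have the table's start. Reads per gene are value divided by step, and their exact Poisson-based intervals cover counting error only.

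Members and lists were chosen with earlier results of these data known. Full values were given for called members, the 6 largest changes not called, partners of called members, and up to 4 called genes per list or the 2 highest. Other members, and Shh, Ctsk and Nfatc1, were named after their values were seen. Alternatives covered pseudocounts, filters, scalings, variance models, a block on column numbers and leaving out each library.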

Additional observations from a re-analysis of the deposited data

How the results depend on the processing

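Members called higher numbered 5 to 8 and lower 0 to 2 under the 10 alternatives that kept all libraries, against 7 and 2. Lower members numbered 1, Eda2r alone, with a pseudocount of 1, a pseudocount of 5 per 1000000, no filter, a filter on the mean or no intensity trend, and 0 with a common total. Over all genes, a common total gave 1057 higher and 283 lower, and sample weights 1132 and 865, against 657 and 413. Without 1 library, members called higher numbered 2 to 6 and lower 0 to 2, and all genes 179 to 697 higher and 74 to 540 lower. With the same genes tested, members called higher numbered 2, 3, 6, 4, 3 and 3 without S2 to S7 in turn and lower 0 to 2, and all genes 234 to 697 higher (243 without S2, 415 without S3, 333 without S7) and 94 to 588 lower (181 without S3, 108 without S6, 170 without S7). The log2 fold change of Tnfrsf11a ran from -0.081 without S7 to 0.92 without S5 in both sets of fits. Tnfsf13b lost its call with the larger pseudocount (adjusted p = 0.0506), Traf4 with totals of all but the 10 highest genes (0.0503), Tnfrsf1a without the filter or trend and Tnfrsf1b without the trend (0.0530). The cause was not tested. The column names share the number UB2 (S2 and S6) and UB3 (S3 and S7), which matches no number in the labels. Deviations from the group means correlated at 0.25 and -0.22 within these pairs, so the numbers are not taken to pair the libraries. A replicate block on them, added after seeing the data, rests on those 4 libraries with S4 and S5 not entering the difference, and gave 11 members higher and 1 lower and 821 and 706 of all genes. In that fit Ltb, Tnf, Tnfrsf4, Tnfsf8 and Traf1 were called higher as well, and Tnfrsf1a and Eda2r were not called. A floor of 3 reads is 2.39 to 3.81 by library (Lta, with 7 and 19 estimated reads, had a ratio interval of 0.899 to 6.29).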

Other observations

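Single libraries held many of the highest values of the set. Knockout S7 was the highest library for 12 of the 34 tested members, among them Tnf, Ltb, Tnfsf8, Tnfrsf4, Tnfrsf18 and Traf1, and for 24.7% of all tested genes. Control S3 was the highest for 9, namely Tnfsf12, Tnfrsf14, Tnfrsf19, Tnfrsf22, Tnfrsf23, Tnfrsf26, Ltbr, Traf3 and Traf5, and for 22.5% of all tested genes. Control S4 was the highest for 0 of the 34 and the lowest for 11, and was the highest for 15.1% of all tested genes.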
